A study of Sus scrofa with 220 samples.

Results

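RAB genes encode the small GTPases that mark membranes and direct vesicles between them, together with proteins named after them that switch them on or off or bind them. They were followed here in single cells of pig embryos before implantation, from the morula to the spherical embryo. A gene was taken as a member when its Ensembl pig symbol begins with RAB and its level was above 1 TPM (a length-corrected share of a cell's transcripts) in at least 3 of the 220 cells. The name table held 77 such symbols, of which 48 had an entry in the deposited tables and 29 did not. All 48 met the threshold and are members, against 14721 genes that met it among 22840 entries. They comprised 32 RAB GTPases and 16 partner proteins. RAB44, with exactly 3 cells above 1 TPM, was the member nearest to the threshold, and no RAB entry fell below it. RAB33A and RAB44 met it through Sph EPI, with 0 and 1 cells above 1 TPM elsewhere, and RAB39B through LB EPI and Sph EPI, with 1 cell elsewhere. Since the group where they are high decided that they were tested, their tests are given as descriptions, and they are included in the counts of called genes.

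RAB proteins cycle between a GTP-bound form, which sits on a membrane and recruits effectors, and a GDP-bound form, which is carried back through the cytosol. Exchange factors load GTP, GTPase-activating proteins end the active state, and a lipid tail added by a dedicated enzyme anchors the protein in the membrane. In early embryos, vesicle traffic delivers adhesion and transport proteins to the apical and basolateral surfaces as the trophectoderm becomes an epithelium, and the hypoblast is a secretory layer that lays down basement membrane.

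Embryos had been flushed from crossbred sows after artificial insemination, and cells were picked by hand for Smart-seq2, a full-length polyA RNA method. No group carried a treatment or genetic change. The paper inferred sex from Y-linked expression, and sex was uneven between groups, with only male cells in Sph HYPO and mostly female cells in LB HYPO. Sex did not enter the fits here, and its part in the differences between groups was not tested. The labels give 7 cell types and no age in days. These were morula (Morula), the inner cell mass (EB ICM) and trophectoderm (EB TE) of the early blastocyst, the epiblast (LB EPI) and hypoblast (LB HYPO) of the late blastocyst, and the epiblast (Sph EPI) and hypoblast (Sph HYPO) of the spherical embryo. They held 47, 24, 28, 25, 36, 48 and 12 cells from 8, 7, 10, 4, 5, 4 and 3 embryos, in that order. The trophectoderm of late blastocysts had been removed by immunosurgery and spherical embryos were dissected by hand, so EB TE was the only trophectoderm. The labels have no field for the embryo, so it was taken from the letters in each cell's identifier, and these letters name the 28 embryos.

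For each embryo and cell type the counts of its cells were added up, which gave 41 sums of 1 to 19 cells. Counts per cell ran from 1012604 to 5696373, with a median of 2006854. Levels below are log2(CPM + 1) of these sums, where CPM is the count scaled to the library total, unless TPM is named. p-values are from edgeR's quasi-likelihood test with Benjamini-Hochberg adjustment over all 14721 genes, called when the adjusted p was under 0.05. They set a difference against the spread between sums, which holds both the spread between embryos and that between cells. Sums of 1 cell numbered 2 in EB ICM, 3 in EB TE and 1 in LB HYPO. Sums of the same embryo entered as separate samples, except where the replicate block over embryos is named. What is called a library pool below is the prefix of the sample title, which has 8 values. They were split in numerical order into the first 4 and the last 4. No label calls these prefixes pools. From a sum alone, fewer expressing cells and less RNA per cell cannot be told apart, so shares of cells above a TPM threshold are given for some genes. The labels were checked against marker lists. The summed level of 5 trophectoderm markers (log2 of the summed CPM) was 14.11 or above in Sph HYPO as well and 7.03 to 9.20 in EB ICM. It was 10.39 to 11.39 in LB HYPO, 11.55 to 12.33 in LB EPI and 11.43 to 13.45 in Sph EPI, so these markers do not single out EB TE. In EB TE it had a median of 15.39, but it was 0.27 in embryo E6-ER, whose EB TE sum is 1 cell that goes against its label. The 5 hypoblast markers summed to 12.08 to 14.02 in the HYPO sums and 5.59 to 8.19 in the EPI sums, and the 4 epiblast markers to 9.17 to 11.39 in EPI and at most 8.10 in HYPO. The 3 markers tested for ICM and Morula summed to 8.21 to 10.15 in Morula and 7.82 to 10.84 in EB ICM. They overlapped EB TE, at 4.12 to 9.54, and 0 of the 3 were called between EB ICM and EB TE.

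In TPM, which allows genes to be compared, RAB1A, RAB7A, RAB2A, RAB14 and RAB10 had the highest mean over the 7 cell types. RAB1A, which acts between the endoplasmic reticulum and the Golgi, had a mean of 424.1 TPM. RAB7A of late endosomes followed with 422.4 TPM, and RAB2A, which acts between the endoplasmic reticulum and the Golgi, with 386.3 TPM. RAB14, which acts between endosomes and the Golgi, had 247.8 TPM, and RAB10, of polarised delivery to the cell surface, had 209.3 TPM. These 5 genes had counts in each of the 41 sums.

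**Figure D1:**
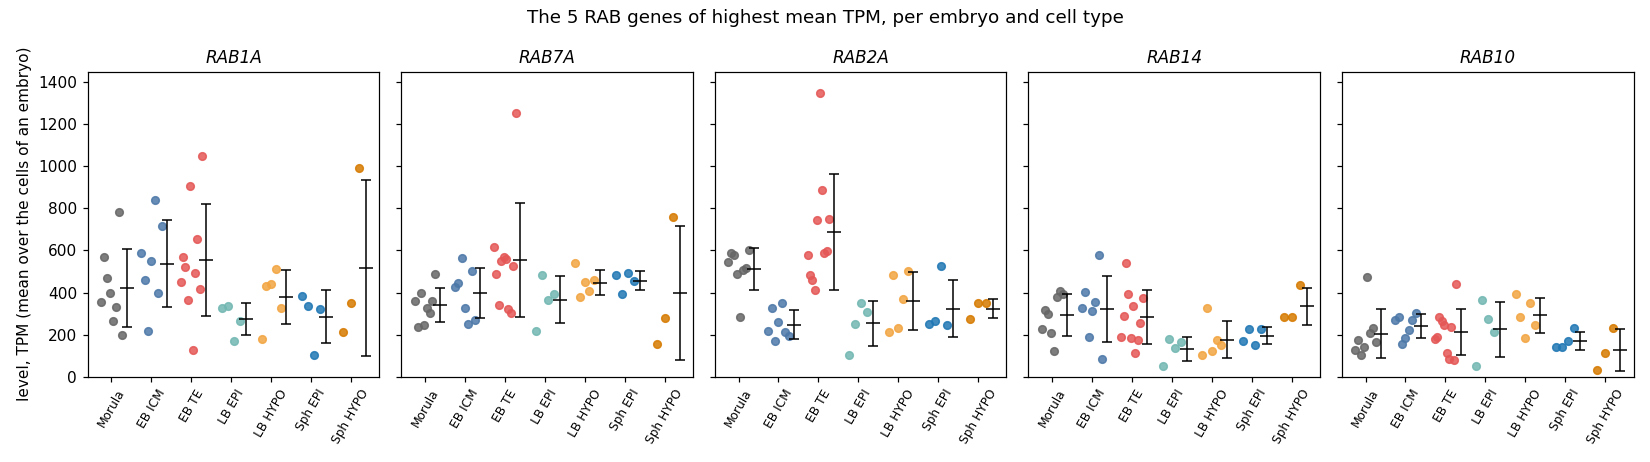
TPM per embryo (vertical axis) of the 5 RAB genes with the highest mean TPM in the 7 cell types. Points are embryos, and bars are the mean ± SD. RAB2A is the gene whose EB TE and EB ICM points separate, at 413.1 TPM and above against at most 351.9 TPM.

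RAB1A, RAB7A, RAB14 and RAB10 each had high and low embryos within a cell type. RAB1A had 555 ± 266 TPM in EB TE (SD, n = 10) and 275 ± 77.1 TPM in LB EPI (n = 4), and its lowest EB TE embryo, at 125.6 TPM, lay below all 4 LB EPI embryos. RAB7A ranged from a mean of 339 TPM in Morula to 553 TPM in EB TE. None of the 4 passed edgeR's test across the 7 cell types, with adjusted p of 0.511 for RAB1A, 0.396 for RAB7A, 0.196 for RAB14 and 0.522 for RAB10. There limma called RAB14 on log2(TPM + 1) (0.0277) but not on log2(CPM + 1). In Morula and EB ICM against LB and Sph EPI, edgeR called neither RAB14 nor RAB1A. DESeq2 (0.0168) and limma on log2(TPM + 1) (0.0343) called RAB14 there. RAB1A was called there by limma on log2(TPM + 1) (0.0116) and log2(TPM + 0.1) (0.00946). At the other end, RAB44 had a mean of 0.0604 TPM, RABL6 0.515 TPM, RAB37 0.613 TPM and RAB3A 0.861 TPM. All 48 genes together took 0.27 to 0.526% of the counts of a sum, with group medians from 0.317% in LB EPI to 0.393% in EB TE.

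**Figure D2:**
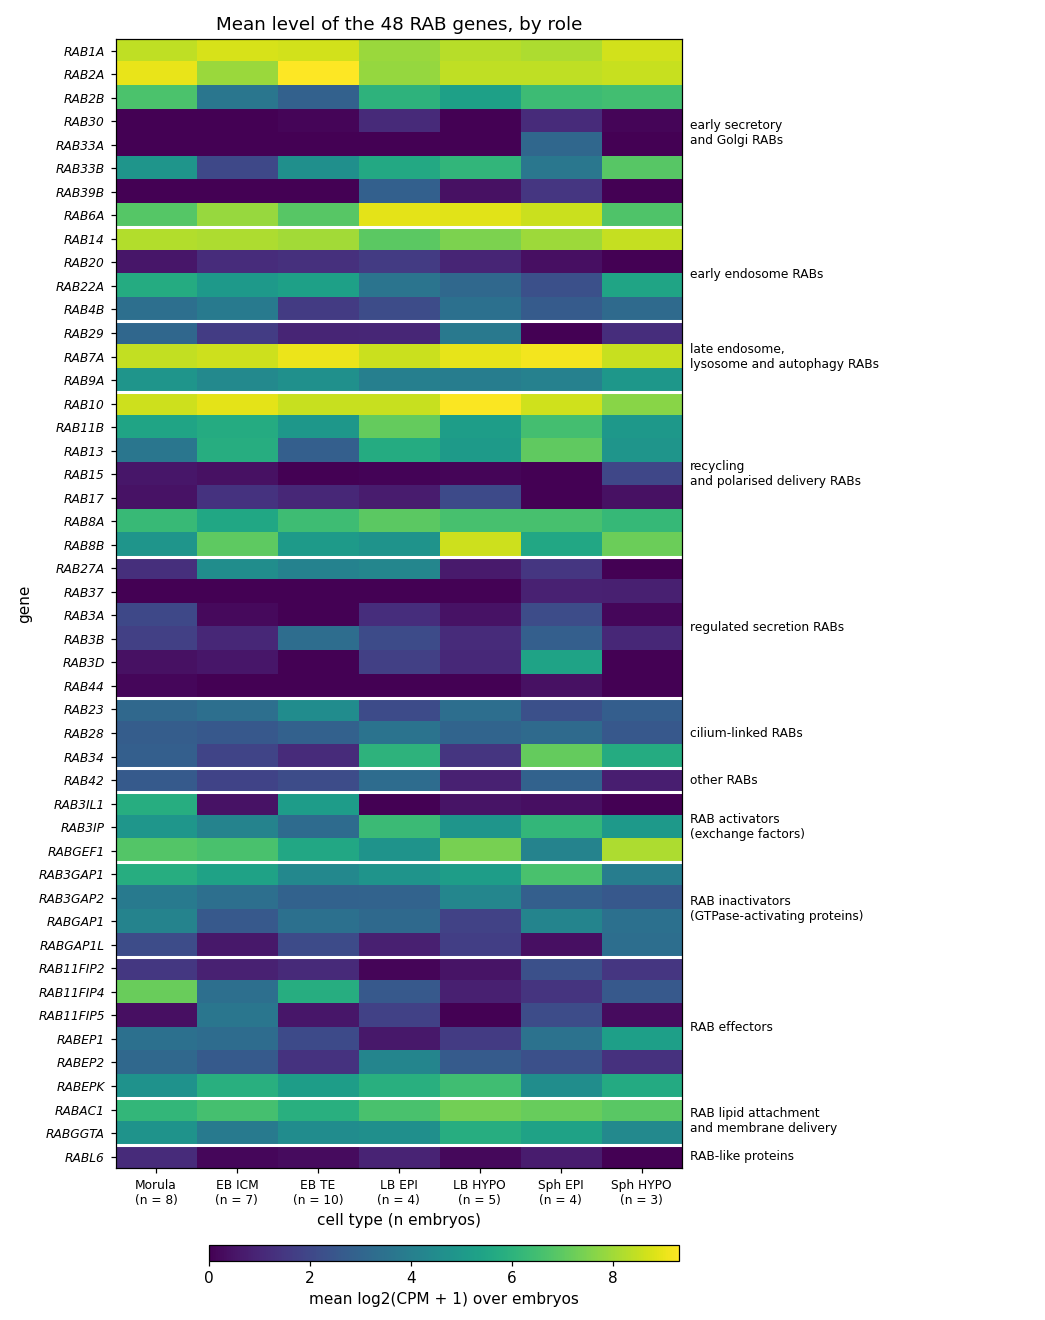
Mean log2(CPM + 1) over embryos (colour) of the 48 RAB genes, in rows grouped by role, in the 7 cell types, with the number of embryos under each name. RAB1A, RAB2A, RAB7A and RAB10 are high in each column, while RAB3IL1 is high in Morula and EB TE only, and RAB3D in Sph EPI.

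Across the 7 cell types, 15 of the 48 RAB genes were called at a background of 37.7% of all genes. RAB33A, RAB39B and RAB44 are among the 15 and in the role counts below, although epiblast brought them over the detection threshold. On simulated data edgeR's test over 7 groups made more false calls than its threshold allows, and limma did not. limma on log2(CPM + 1), chosen after the data had been seen, called 21 of the 48 at a background of 33.6%. In both tests 14 genes were called, and the edgeR call of RAB44 was not repeated by limma. By role, edgeR called 5 and limma 4 of the 6 RABs of regulated secretion, and edgeR 4 and limma 6 of the 8 of the early secretory route and Golgi. For recycling and polarised delivery these were 2 and 3 of 7, for effectors 2 and 3 of 6, for exchange factors 1 and 2 of 3, and for lipid attachment and membrane delivery 1 and 1 of 2. edgeR called 0 and limma 1 of the 4 early endosome RABs, RAB22A, and of the 3 RABs linked to cilia, RAB34. Neither called any of the 3 RABs of late endosomes and lysosomes, the 4 GTPase-activating proteins or the single member of each remaining list, RAB42 and RABL6.

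The study's lineage and stage comparisons gave few calls among RAB genes. EB ICM against EB TE called 2 of 48, at a background of 0.754%, both lower in EB ICM. LB EPI against LB HYPO called 0 of 48 at a background of 1.92%, and DESeq2 called 3. An unadjusted p under 0.05 was found for 6 of the 48, against 2943 of all 14721 genes. The share of all genes called by DESeq2 is not given here, so its counts are no measure of the RAB genes as a group. Sph EPI against Sph HYPO called 1, higher in EPI, at 1.13%. In that comparison the log2 fold changes of all genes had a median of 0.574 and those of the RAB genes a median of -0.03.

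Along the line from morula to epiblast, Morula against EB ICM called 2 of 48 at a background of 2.45%, both higher in Morula. EB ICM against LB EPI called 0 at 2.91%, with 6 at an unadjusted p under 0.05, against 3328 of all 14721 genes, and 1 called by DESeq2. LB EPI against Sph EPI called 0 at 0.156%, with 8 at an unadjusted p under 0.05, against 1999 of all 14721 genes, and 5 called by DESeq2. Morula and EB ICM together against LB and Sph EPI called 9, at 21.8%, with 5 higher in the earlier cells and 4 in EPI. Among those 4 is RAB39B, which EPI brought over the detection threshold. The difference between EPI and HYPO was also compared between LB and Sph, and 0 of 48 were called at 0.0408%. There 4 had an unadjusted p under 0.05, against 1597 of all 14721 genes, and DESeq2 called 1. The median over all genes was -0.18 for Morula and EB ICM against EPI, -0.12 for EB ICM against LB EPI and -0.43 for the difference of differences, against 0.03, 0.02 and -0.11 over the RAB genes. These comparisons share samples, EB ICM and the EPI groups among them, so their calls are not independent of each other.

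**Figure D3:**
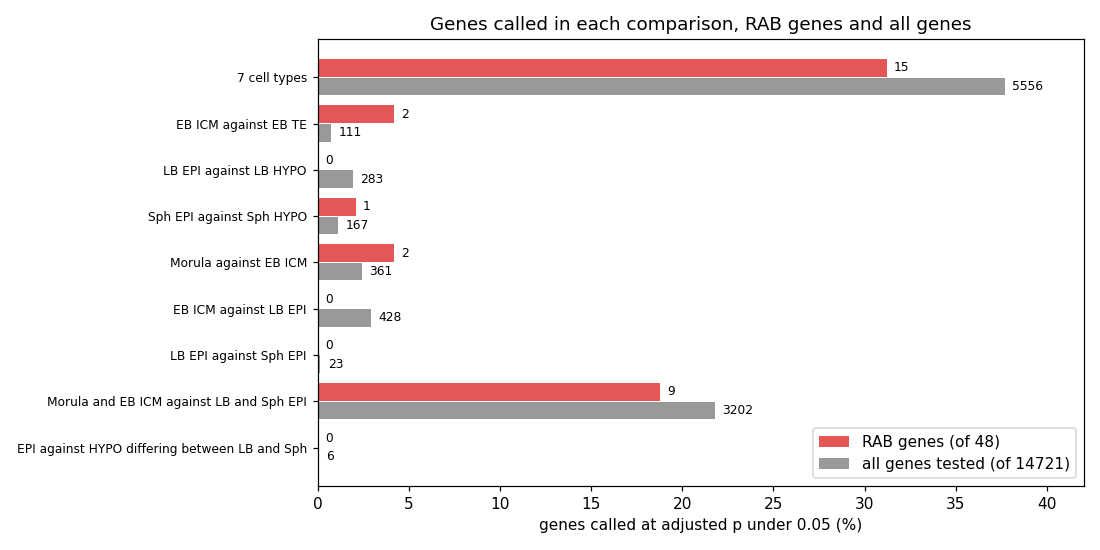
Percentage of genes called at an adjusted p under 0.05 (horizontal axis) in the 9 comparisons, for the 48 RAB genes and for all 14721 genes tested. The RAB genes reach 15 of 48 across the 7 cell types and 9 of 48 in Morula and EB ICM against EPI, at backgrounds of 37.7% and 21.8%.

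Among the RABs of the early secretory route and the Golgi, RAB2A had its highest levels in EB TE and Morula and its lowest in EB ICM and LB EPI. In EB TE the RAB2A level ran from 8.85 over a median of 9.25 to 10.29 (9.31 ± 0.46, SD, n = 10). In Morula it ran from 8.11 over 9.07 to 9.45 (9.01 ± 0.41, n = 8), and in EB ICM from 7.29 over 7.75 to 8.75 (7.90 ± 0.55, n = 7). EB TE lay wholly above EB ICM, whereas the lowest morula, V, lay within the EB ICM range. In LB EPI, RAB2A stood at 6.56, 7.87, 8.54 and 8.43 in embryos AN, AO, AP and AQ, and in LB HYPO at 7.56 to 9.07. In Sph EPI it was 8.05, 8.30, 9.10 and 8.25 in embryos C, D, E and F, and in Sph HYPO 8.22, 8.56 and 8.76 in C, E and F. The later groups overlapped each other and the EB ICM. In TPM, RAB2A had 686 ± 276 in EB TE, 513 ± 101 in Morula and 247 ± 69.7 in EB ICM. All 28 EB TE cells and all 24 EB ICM cells had RAB2A above 10 TPM, so these 2 groups did not differ in the share of cells above it.

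RAB2A was lower in EB ICM than in EB TE by a log2 fold change of -1.39 (SE 0.30, adjusted p = 0.0301). All 7 embryos that gave both cell types had the higher level in EB TE, with a mean difference of -1.53 ± 0.55 (SD), and the replicate block over embryos kept the call (log2 fold change -1.53, adjusted p = 0.0357). Leaving out EB ICM AA, AE, AG or AI or EB TE AE or AF gave an adjusted p of 0.0524 to 0.0807, and sums of at least 2 cells gave 0.0898. Within the first and last 4 library pools the log2 fold changes were -1.54 (adjusted p = 0.209) and -1.17 (adjusted p = 0.214). Of the 5 trophectoderm markers, 4 were also called lower in EB ICM than in EB TE, and their part in the RAB2A result was not tested. In the EB TE cell of E6-ER, where those markers were nearly absent, RAB2A stood at 8.96.

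RAB2A was also lower in EB ICM than in Morula (log2 fold change of Morula against EB ICM 1.01, SE 0.26, adjusted p = 0.0475). This call was lost in 12 of 15 runs that each left out a sum, namely EB ICM AA, AD, AE, AG and AI and Morula ER, S, T, U, W, X and Y, with an adjusted p of 0.0578 to 0.0902. Within the first and last pools the log2 fold changes were 1.04 (adjusted p = 0.217) and 1.20 (adjusted p = 0.168). Over all 7 cell types RAB2A had an adjusted p of 0.00150, which was 0.0844 in the first pools and 0.0386 in the last.

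RAB30, RAB33A and RAB39B, GTPases of the Golgi region, had nearly all their counts in epiblast. RAB39B was 3.95, 0, 3.48 and 3.99 in LB EPI AN, AO, AP and AQ, and 2.02, 2.48, 0 and 1.37 in Sph EPI C, D, E and F. It was at 0 in every Morula, EB ICM, EB TE and Sph HYPO sum, and 1 LB HYPO sum, AO, stood at 2.07. Over both EPI groups, RAB39B had 754 pooled counts against 0 in Morula and EB ICM, a ratio of 233 at a floor of 3 counts. The floor leaves out the spread between cells. The edgeR adjusted p of RAB39B, 0.00166, is a description only, because EPI brought it over the detection threshold. Even so, only 5 of 25 LB EPI cells (20%, exact 95% interval 6.83 to 40.7%) and 5 of 48 Sph EPI cells had RAB39B above 1 TPM.

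RAB30 stood at 1.79, 1.22, 0 and 1.49 in LB EPI AN, AO, AP and AQ and at 0.96, 2.19, 0 and 1.40 in Sph EPI C, D, E and F. Outside epiblast, RAB30 had counts in Morula S (0.15), EB TE AC (1.33) and Sph HYPO F (0.39) only. Its 236 pooled counts in EPI against 2 in Morula and EB ICM gave a ratio of 109 (edgeR adjusted p = 0.00153, and 0.0233 and 0.0171 within pools). That ratio leaves out the spread between cells. RAB30 was above 1 TPM in 7 of 25 LB EPI, 12 of 48 Sph EPI, 1 of 47 Morula and 0 of 24 EB ICM cells. LB AP and Sph E were the epiblast sums without RAB30, so the 2 EPI groups overlapped the earlier cells there.

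RAB33A had counts in Sph EPI and in no other group. In C, D, E and F its level was 2.41, 3.71, 3.48 and 2.80, from 10 of 48 cells above 1 TPM (20.8%, interval 10.5 to 34.99%), while 0 of 25 LB EPI cells allows a share of up to 12%. The 4 Sph EPI sums thus stood apart from every other sum. In pooled counts, with a floor of 3 in place of 0, the ratio was 119 to LB EPI and 55.2 to Sph HYPO. The floor leaves out the spread between cells. For 0 of 12 Sph HYPO cells the exact upper limit is 26.46%, so an equal share is possible there. These differences are a description, because Sph EPI alone brought RAB33A over the detection threshold, and the tools differed on them. The adjusted p was 0.192 with edgeR and 4.11e-09 with DESeq2 against LB EPI, 0.168 and 4.84e-06 against Sph HYPO, and 0.00162 and 0.574 over all 7 cell types.

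Among the RABs of regulated secretion, RAB3D, a GTPase of secretory granules, had its counts mainly in the spherical epiblast. Its level was 5.06, 5.51, 6.06 and 4.99 in Sph EPI C, D, E and F, against 0 in all 3 Sph HYPO sums. The 2 groups did not overlap, and 36 of 48 Sph EPI cells (75.0%, interval 60.4 to 86.4%) were above 1 TPM against 0 of 12 Sph HYPO cells, which allows up to 25%. With 3878 pooled counts against 0, RAB3D was higher in Sph EPI (edgeR adjusted p = 0.0371). The ratio was 286 at a floor of 3 counts, which leaves out the spread between cells.

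The RAB3D call depended on the sums and on the model. It was lost without Sph EPI C, D, E or F (adjusted p 0.101 to 0.111), with the replicate block over the 3 shared embryos (0.333), with all 7 cell types in the fit (0.327) and within the first (0.0514) and last pools (0.304). Elsewhere RAB3D appeared in scattered sums. It was 4.80 and 2.20 in LB EPI AN and AQ and 0 in AO and AP, 5.30 in LB HYPO AL, 3.23 in Morula ER and 3.83 in EB ICM AG, and 0 in the other sums of those groups and in all of EB TE. The change of the EPI to HYPO difference between LB and Sph was not called for RAB3D (adjusted p = 0.386), so that difference was not shown to vary with stage.

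A further 3 genes of this list differed across the 7 cell types. RAB3A, best known from synaptic vesicles, ran from 0 over a median of 2.40 to 3.57 in Morula and was 0 in all 10 EB TE sums (adjusted p = 0.00625, and 0.0546 and 0.0551 within pools). RAB27A, which docks secretory lysosomes at the cell surface, ran from 0 over 4.94 to 7.03 in EB ICM and from 0 over 5.30 to 7.57 in EB TE, and was 0 in all 3 Sph HYPO sums (adjusted p = 0.0211). RAB37, also linked to granule release, was at 1.88 or below in every sum and had counts in 7 sums in all (adjusted p = 0.00215, and 0.0248 and 0.364 within pools). DESeq2 gave RAB37 no value across the 7 cell types. These 3 genes overlapped between most groups, and at such counts the level of RAB37 is near the limit of detection. RAB27A was lower in Morula than in EB ICM by -3.84 on the log2 scale (SE 1.63), which did not pass (adjusted p = 0.158).

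In recycling and polarised delivery, RAB8B, which acts in delivery from the Golgi to the plasma membrane, was highest in LB HYPO. It ran from 7.93 to 9.03 in the 5 LB HYPO sums and stood at 7.07, 6.18, 2.14 and 3.68 in LB EPI AN, AO, AP and AQ. The hypoblast sums lay above all 4 epiblast sums, yet the log2 fold change of EPI against HYPO, -2.90 (SE 0.85), was not called (adjusted p = 0.130, and 0.00353 to 0.486 over 21 alternatives, of which 3 gave a call). In the spherical embryo the difference had the same sign, -1.59 (SE 0.65, adjusted p = 0.298 with edgeR, 0.0330 with DESeq2, and 0.0157 and 0.0144 with limma on log2(TPM + 1) and log2(TPM + 0.1)). In all 3 embryos with both cell types HYPO was higher, at both stages. Of the 48 RAB genes, 10 in LB and 8 in Sph were higher in HYPO in every such embryo, and 5 and 8 were higher in EPI, so this agreement is not particular to RAB8B. RAB8B differed across the 7 cell types (adjusted p = 0.0131), but not within the first pools (0.0784) or the last (0.159). The hypoblast markers summed to 12.08 to 13.66 in LB HYPO and 5.59 to 8.19 in LB EPI, and their part in the result was not tested.

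RAB11B, a GTPase of recycling endosomes, was higher in epiblast than in Morula and EB ICM. It stood at 6.80, 6.92, 7.68 and 6.95 in LB EPI and at 6.89, 7.19, 4.62 and 7.34 in Sph EPI, against 4.99 over a median of 5.38 to 6.02 in Morula. EB ICM, from 3.82 over 5.87 to 7.21, overlapped the epiblast, and Sph EPI E lay below all Morula sums. The log2 fold change of the earlier cells against EPI was -1.19 (SE 0.37, adjusted p = 0.0238), lost without LB EPI AP (0.0642), and it was -1.08 and -1.13 within the first and last pools (adjusted p = 0.145 and 0.117), and all 7 cell types in the fit gave 0.0895. RAB15, of recycling endosomes too, was above 1 TPM in only 4 of 47 Morula, 1 of 24 EB ICM, 1 of 25 LB EPI and 0 of 48 Sph EPI cells. It had 115 counts in Morula and EB ICM against 4 in EPI (adjusted p = 0.0493 with edgeR, and not called by DESeq2 or limma). Without any of 14 of the 23 sums it was no longer called, with an adjusted p from 0.0511 up to 1.0, namely EB ICM AE, AG and AI, all 4 LB EPI sums, Morula W, X and Y and all 4 Sph EPI sums.

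Among early endosome RABs, RAB22A was higher in the earlier cells than in epiblast. It ran from 5.13 to 6.35 in Morula, with a median of 5.69, and in EB ICM from 0 in embryo AD, and 5.30 in the next lowest, to 6.92. In LB EPI it was 2.22, 3.25, 5.51 and 3.35 and in Sph EPI 2.30, 1.92, 0.29 and 4.56. Apart from EB ICM AD and LB EPI AP the earlier sums lay above the epiblast sums (log2 fold change 2.36, SE 0.79, adjusted p = 0.0335). The call was lost without any of 12 of the 23 sums (0.0504 to 0.0917), namely EB ICM AF, AG and AI, LB EPI AN, AO and AQ, Morula S, T and Y and Sph EPI C, D and E. Within pools RAB22A had an adjusted p of 0.0686 and 0.191, and with all 7 cell types in the fit 0.0520.

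Of the late endosome and lysosome RABs, RAB29 was called higher in Morula and EB ICM than in epiblast (adjusted p = 0.0253). Morula ran from 0 over 3.63 to 6.22 and EB ICM from 0 over 0.50 to 4.04. Among the 8 epiblast sums RAB29 had counts in LB EPI AO only, at 4.01. Both sides of the comparison thus held sums without a count, whereas LB HYPO stood at 2.24 to 5.47 in all 5. Leaving out Sph EPI C, D or F gave an adjusted p of 0.0507 to 0.0548, and the first and last pools gave 0.0125 and 0.0508.

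RAB34, a GTPase linked to the early steps of cilium formation, rose from the earlier cells to epiblast. It stood at 5.76, 5.64, 6.11 and 6.54 in LB EPI and at 7.48, 7.06, 6.55 and 7.34 in Sph EPI. Morula ran from 0 over a median of 3.06 to 6.33, and EB ICM from 0 over 1.44 to 4.39, so a single morula, W, reached into the epiblast range. The log2 fold change of the earlier cells against EPI was -3.07 (SE 0.95, adjusted p = 0.0214), retained in all 23 runs that left out a sum and lost within the first (0.0502) and last pools (0.110) and with all 7 cell types in the fit (0.0728). RAB34 was not confined to epiblast, since the 3 Sph HYPO sums stood at 5.37 to 6.36.

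**Figure D4:**
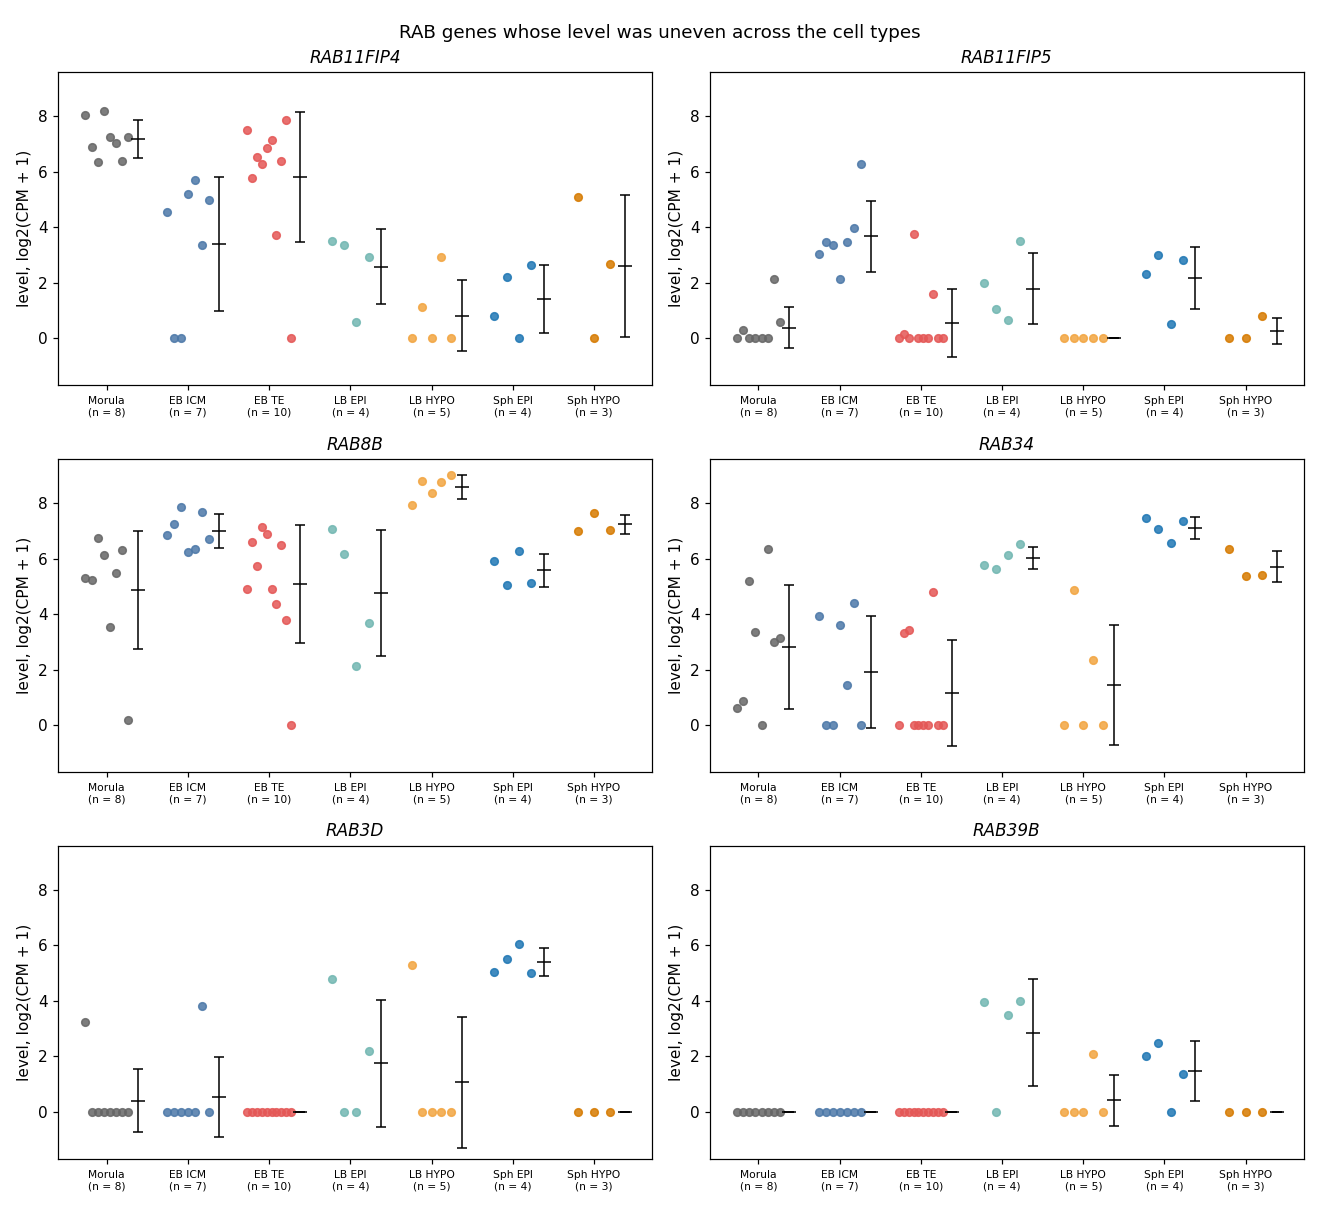
log2(CPM + 1) per embryo (vertical axis) of RAB11FIP4, RAB11FIP5, RAB8B, RAB34, RAB3D and RAB39B in the 7 cell types, with the number of embryos under each name. Points are embryos, and bars are the mean ± SD. RAB3D is at 4.99 or above in all 4 Sph EPI sums and at 0 in all 3 Sph HYPO sums, and RAB8B is at 7.93 or above in all 5 LB HYPO sums.

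Among the exchange factors, RAB3IL1, which loads GTP onto RAB3A and related RABs, showed the most uneven pattern. In Morula it ran from 4.32 over a median of 5.82 to 7.31 (5.78 ± 1.05, SD, n = 8), and in EB TE from 2.60 over 5.54 to 6.12 (5.14 ± 1.06, n = 10). In EB ICM, RAB3IL1 stood at 1.59 in AA, 1.46 in AE and 0.13 in AC and at 0 in the other 4 embryos (0.45 ± 0.73, n = 7). EB ICM thus lay wholly below both groups. At later stages RAB3IL1 was at 0 in all 4 LB EPI and all 3 Sph HYPO sums, at 2.43 in LB HYPO AM and 0 in the other 4, and at 0.78 and 0.68 in Sph EPI D and F and 0 in C and E.

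The same order held in cells. RAB3IL1 was above 1 TPM in 39 of 47 Morula cells (83.0%, exact 95% interval 69.2 to 92.4%), 20 of 28 EB TE cells (71.4%, interval 51.3 to 86.8%) and 2 of 24 EB ICM cells (8.33%, interval 1.03 to 27%). It was above 1 TPM in 0 of 25 LB EPI cells, which allows up to 12%, 1 of 36 LB HYPO, 2 of 48 Sph EPI and 0 of 12 Sph HYPO cells. These intervals cover counting error only, and cells of 1 embryo are not independent.

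RAB3IL1 was higher in Morula than in EB ICM by a log2 fold change of 6.75 (SE 1.25, adjusted p = 0.00493), with 5917 counts against 40. The call was kept in all 15 runs that left out a sum (0.00518 to 0.0149) and within the last pools (0.0320), and not within the first (log2 fold change 6.79, adjusted p = 0.105). The trophectoderm markers moved with it, at 9.98 to 12.59 in Morula and 7.03 to 9.20 in EB ICM, with KRT8, KRT18 and DAB2 called higher in Morula, and their part in the result was not tested. Against epiblast, RAB3IL1 was called higher in Morula and EB ICM (adjusted p = 0.00127, and 0.0202 and 0.0112 within pools), and across the 7 cell types in each of 53 alternatives (adjusted p = 4.92e-06, at most 0.00190).

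Between EB ICM and EB TE, RAB3IL1 was lower in EB ICM by -6.13 on the log2 scale (SE 1.44, adjusted p = 0.0463), with 40 counts against 2602. It was lower in EB ICM in all 7 embryos with both cell types (mean difference -4.70 ± 1.35, SD). With the replicate block over those embryos the log2 fold change was -7.81 and the call was lost (adjusted p = 0.149), as it was when any sum but EB TE E6-ER was left out (16 of 17 runs, 0.0591 to 0.105). Without the cells of less certain embryo, E6-ER among them, the adjusted p was 0.0291. Within the first and last pools the log2 fold changes were -6.57 (adjusted p = 0.209) and -6.26 (adjusted p = 0.214).

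**Figure D5:**
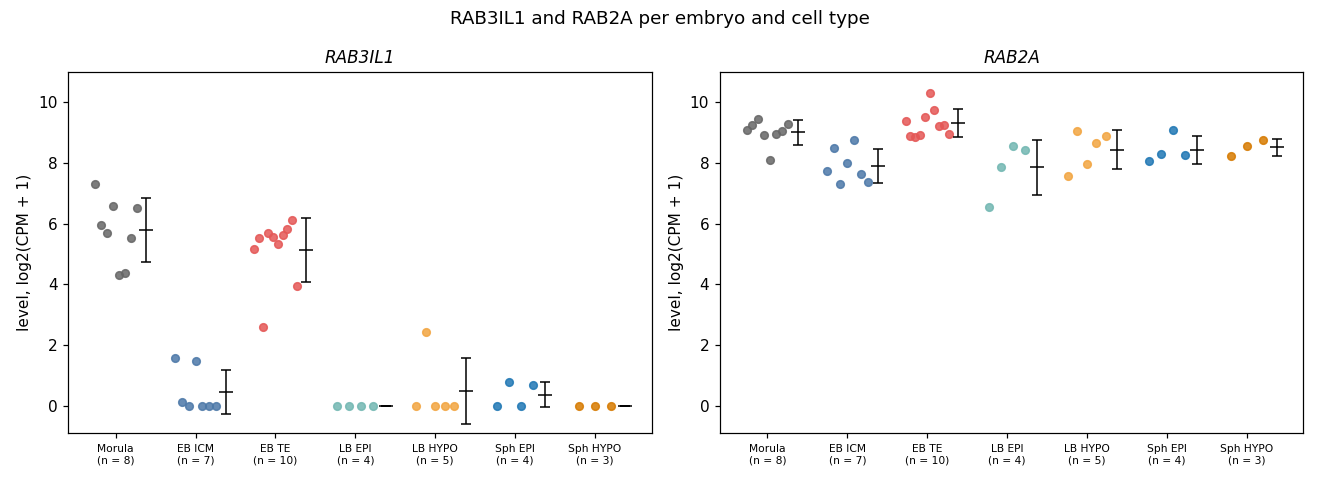
log2(CPM + 1) per embryo (vertical axis) of RAB3IL1 and RAB2A in the 7 cell types, with the number of embryos under each name. Points are embryos, and bars are the mean ± SD. The EB ICM points of RAB3IL1 are at 1.59 or below and the EB TE points at 2.60 or above, and those of RAB2A are at 8.75 or below and 8.85 or above.

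The other 2 exchange factors were called by edgeR in none of the 9 comparisons, but limma on log2(CPM + 1) called RABGEF1 across the 7 cell types (adjusted p = 0.0147), as did DESeq2 (0.0367). RABGEF1, which activates the RABs of early endosomes, ran from 6.08 to 7.88 in Morula and from 6.15 to 8.10 in LB HYPO. RAB3IP, which activates RAB8 in cilium formation, ran from 5.49 to 7.21 in LB EPI and from 0 to 6.88 in EB TE. Their EB TE ranges overlapped those of EB ICM, in contrast to RAB3IL1. edgeR called none of the 4 GTPase-activating proteins in the 9 comparisons, and DESeq2 called RAB3GAP1 in LB EPI against Sph EPI and RABGAP1L in Sph EPI against Sph HYPO. RAB3GAP1, a subunit of the complex that inactivates RAB3, was 4.24, 4.28, 5.03 and 5.77 in LB EPI and 6.81, 7.19, 6.72 and 5.85 in Sph EPI. The groups did not overlap, and the log2 fold change of -1.76 (SE 0.57) had an adjusted p of 0.304 with edgeR and 0.0127 with DESeq2.

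Among the effectors, 2 RAB11 family interacting proteins, which link RAB11 on recycling endosomes to motors and the cytoskeleton, differed across the cell types with unlike patterns. RAB11FIP4 ran from 6.35 over 7.15 to 8.17 in Morula, from 0 over 4.53 to 5.71 in EB ICM and from 0, in E6-ER, over 6.47 to 7.88 in EB TE. It stood at 0.58 to 3.50 in LB EPI, 0 to 2.93 in LB HYPO, 0 to 2.64 in Sph EPI and 0 to 5.10 in Sph HYPO. Morula lay above EB ICM, and all 7 embryos with both cell types had more RAB11FIP4 in EB TE than in EB ICM.

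Against epiblast, RAB11FIP4 was higher in Morula and EB ICM by 3.90 on the log2 scale (SE 0.97, adjusted p = 0.00578), with 2.95 (adjusted p = 0.180) in the first pools and 5.03 (adjusted p = 0.00799) in the last. The log2 fold change of Morula against EB ICM, 2.84 (SE 0.93), was not called by edgeR (adjusted p = 0.0977) and was called by DESeq2 (0.0237) and by limma on log2(TPM + 1) (0.0273) and log2(TPM + 0.1) (0.0434). That of EB ICM against EB TE, -2.21, was not called by edgeR (adjusted p = 0.366), DESeq2 or limma. In the test of all 7 cell types RAB11FIP4 was called in each of 53 alternatives (adjusted p = 0.00187, at most 0.0354).

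RAB11FIP5 had its highest levels in EB ICM, from 2.12 over 3.46 to 6.27 in 7 sums. In EB TE it was 3.76 in AD, 1.60 in AH, 0.15 in AB and 0 in the other 7, and in Morula it was at most 0.57 but for X, at 2.12. It was above 1 TPM in 14 of 24 EB ICM cells (58.3%, interval 36.6 to 77.9%) against 2 of 28 EB TE cells (7.14%) and 1 of 47 Morula cells (2.13%). The log2 fold change of Morula against EB ICM was -5.23 (SE 1.57, adjusted p = 0.0792) and was called without Morula X (0.0212), by DESeq2 (0.000713) and by both limma settings (0.0395 and 0.00946). That of EB ICM against EB TE was 3.63 (adjusted p = 0.204 with edgeR, 0.00365 with DESeq2, and 0.0151 with limma on log2(TPM + 0.1)). In LB EPI, RAB11FIP5 had 215 pooled counts against 0 in LB HYPO (adjusted p = 0.164 with edgeR and 0.00123 with DESeq2). The ratio was 87.7 at a floor of 3 counts, which leaves out the spread between cells. Above 1 TPM were 5 of 25 LB EPI cells and 0 of 36 LB HYPO cells. It differed across the 7 cell types (adjusted p = 0.00905, and 0.0263 and 0.0845 within pools).

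RABAC1, which helps to deliver RABs to membranes, was the called gene of the lipid attachment and membrane delivery list (adjusted p = 0.0346 across the 7 cell types). It ran from 4.28 over 6.29 to 6.71 in Morula and from 5.14 over 6.03 to 6.44 in EB TE, and from 6.28 over 7.69 to 7.84 in LB HYPO. LB HYPO AL lay within the earlier ranges and the other 4 above them. RABGGTA, a subunit of the enzyme that adds the lipid tail, was not called by edgeR in any of the 9 comparisons.

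The other genes of vesicle traffic without a RAB symbol were read alongside. The list held 101 tested genes, with 23 SNAREs, which fuse vesicles with their target, 7 exocyst subunits, 8 subunits of the HOPS and CORVET tethers, 7 further GTPases and 56 RAB regulators and effectors. Over all 7 cell types 20 of the 101 were called, at a background of 37.7% of all genes. edgeR called 0 in EB ICM against EB TE (background 0.754%), where DESeq2 called 3 and the median log2 fold change of the 101 was 0.02. An unadjusted p under 0.05 was found for 15 of the 101, against 2783 of all 14721 genes. edgeR also called 0 in Sph EPI against Sph HYPO (background 1.13%, 13 unadjusted, 11 by DESeq2), in LB EPI against Sph EPI (0.156%, 4 unadjusted, 3 by DESeq2) and in the difference of EPI to HYPO between LB and Sph (0.0408%, 4 unadjusted, 3 by DESeq2). The unadjusted counts over all 14721 genes were 2236, 1999 and 1597, in that order. The DESeq2 counts have no background beside them here and are no measure of these genes as a group.

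In LB EPI against LB HYPO, at a background of 1.92%, the call was SAR1B, the GTPase of the coat that buds from the endoplasmic reticulum, at -1.96 on the log2 scale (SE 0.44, adjusted p = 0.0403). No gene of the list was called there when any sum but LB HYPO AO was left out, in either set of pools or with the replicate block, which gave 0. In Morula against EB ICM, at 2.45%, it was OPTN, an effector of RAB8, at -1.74 (SE 0.43, adjusted p = 0.0379), and no gene was called without EB ICM AA, AC, AF, AG or AI or Morula ER, S, T, U, W or Y, or in either set of pools. In EB ICM against LB EPI, 3 genes were called at a background of 2.91%, with STX7, a SNARE of late endosomes, higher in EB ICM by 1.86 (SE 0.47, adjusted p = 0.0436) and SYTL5 and BICD1 higher in LB EPI, and 1 was called without EB ICM AA and 0 in either set of pools. Morula and EB ICM against EPI called 14, at a background of 21.8%, of which 8 were higher in the earlier cells and 6 in EPI. Those of lowest p that were higher in the earlier cells were the SNARE STX17, PLEKHM1, a RAB7 effector, and DENND2D. Those of lowest p that were higher in EPI were BICD1, a dynein adaptor, SYTL5, a RAB27 effector, and MYO5C, a motor that carries vesicles on actin.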

How the data were processed

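Per the paper's methods and the labels, the authors ran scythe and sickle on the reads, used HISAT2 2.1.0 for alignment, counted unique alignments per Ensembl gene with HTSeq and removed low-quality cells. They deposited raw counts and TPM values per cell, both used as deposited, with 16 entries they had added. Strand use in counting and read sharing between paralogs are not given in the sources used here. Ensembl symbols were matched to 11437 entries.

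Counts were summed per embryo and cell type and compared with edgeR 4.0.16 (TMM, quasi-likelihood F-test) in R 4.3.3 on genes above 1 TPM in at least 3 cells. Only the groups compared entered a fit, except across the 7 cell types. The SE is the log2 fold change divided by the square root of F. The study's test, SCDE, was not used because it takes cells as replicates. 1 morula cell of no known embryo was left out of the sums. Tests were checked on simulated data, where edgeR's test over 7 groups made more false calls than its threshold allows, and limma did not. Alternatives were DESeq2 1.42.0, limma 3.58.1 on log2(TPM + 1), log2(TPM + 0.1) and log2(CPM + 1), other filters and scalings, sets of library pools, each sum left out, and the replicate block.

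Sums with the same embryo letters come from 1 embryo and are paired by it, in 7 embryos for ICM and TE, 3 for LB and 3 for Sph. Their deviations from the group means had a median correlation of 0.059, 0.02 and 0.075, over 0.1 in 1 of 7, 0 of 3 and 1 of 3 pairs. Depth was 1012604 to 5696373 counts per cell. Floors are 3 counts in place of 0 over a group. Ratios of pooled counts leave out the spread between cells and embryos, and counts of 1 cell are not independent. Intervals of shares are exact Clopper-Pearson intervals at 95%, for counting error only. For shares of 0 the limit given is 3 divided by the number of cells, unless it is called exact. No values are given for genes outside the matched symbols.

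Genes named are RAB2A and RAB3IL1, the 10 RAB genes with the lowest p across the 7 cell types, those called in a pairwise comparison with the 2 of lowest p in each direction, and the 5 of highest mean TPM. RAB3IP, RABGEF1, RABAC1, RABGGTA, RAB42, RABL6, RAB44, the marker genes and the other traffic genes named were added after their values were seen. The members and lists were chosen with earlier results of these data known.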

Additional observations from a re-analysis of the deposited data

Results flagged for a closer look

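Sums that stood apart from the others of their group were sought for the named RAB genes in groups of 4 to 10 embryos, by the gap to the nearest sum relative to the range of the group. Of 100 groups tested, 25 were marked. Chance flags about 1 in 20 groups of continuous values, but 12 of the 25 are groups in which every other sum was at 0, where any count is marked, so that rate is no yardstick for these. Levels are log2(CPM + 1), and no explanation was tested.

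A low sum stood apart in these cases. RAB11B was 4.62 in Sph EPI E. RAB11FIP4 and RAB8B were 0 in EB TE E6-ER, the cell that goes against its label. RAB1A was 7.47 in EB ICM AD and 6.67 in EB TE AF. RAB22A was 0 in EB ICM AD, RAB2A 8.11 in Morula V, RAB39B 0 in LB EPI AO and RAB7A 7.71 in LB EPI AN.

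A high sum stood apart in the others, most often with no count in the rest of the group. RAB11FIP5 was 2.12 in Morula X and 3.76 in EB TE AD. RAB15 was 2.92 in Morula Y, 2.94 in EB ICM AE and 0.29 in LB EPI AQ. RAB29 was 4.01 in LB EPI AO, RAB30 0.15 in Morula S and 1.33 in EB TE AC, and RAB37 0.17 in Morula W and 0.35 in LB HYPO AO. RAB39B was 2.07 in LB HYPO AO, RAB3A 1.27 in EB ICM AE and RAB3IL1 2.43 in LB HYPO AM. RAB3D was 3.23 in Morula ER, 3.83 in EB ICM AG and 5.30 in LB HYPO AL.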

How the results depend on the processing

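Counts of RAB genes called changed by over 1.5 times under these settings, and the cause was not tested. The share of all genes called under each setting is not given. The counts thus show how calls depend on processing and are no measure of RAB or traffic genes against other genes. Across the 7 cell types (15), the last 4 pools gave 6. EB ICM against EB TE (2) gave 1 with edgeR's own filter, 0 with sums of at least 2 cells, 0 in the first 4 pools, 0 in the last 4 pools and 1 with the replicate block. LB EPI against LB HYPO (0) gave 3 with DESeq2 and 2 and 3 with limma on log2(TPM + 1) and log2(TPM + 0.1). Sph EPI against Sph HYPO (1) gave 6 with DESeq2, 4 and 2 with limma, 0 in the first and 0 in the last pools, 0 with all 7 cell types in the fit and 0 with the replicate block. Morula against EB ICM (2) gave 6 with DESeq2, 5 and 5 with limma, 1 with sums of at least 2 cells, 0 in the first pools and 1 in the last. EB ICM against LB EPI (0) gave 1 with DESeq2, 4 and 4 with limma and 2 with all 7 cell types in the fit. LB EPI against Sph EPI (0) gave 5 with DESeq2. Morula and EB ICM against EPI (9) gave 14 and 14 with limma. The difference of EPI to HYPO between LB and Sph (0) gave 1 with DESeq2 (RAB29) and 1 and 1 with limma (RAB33A). Leaving out each sum in turn gave 13 to 17 calls across the 7 cell types, 0 to 2 for EB ICM against EB TE, 1 to 2 for Morula against EB ICM, 6 to 11 for Morula and EB ICM against EPI, 0 to 1 for Sph EPI against Sph HYPO and 0 to 0 for the others. Calls among the 101 other traffic genes moved as follows. In the test over 7 cell types (20), DESeq2 gave 12 and the last pools 13. EB ICM against EB TE (0) gave 3 with DESeq2, 4 and 4 with limma and 3 with all 7 cell types in the fit. LB EPI against LB HYPO (1) gave 5 with DESeq2, 3 and 4 with limma and 0 with sums of at least 2 cells, 0 in the first pools, 0 in the last, 0 with all 7 cell types in the fit and 0 with the replicate block. Sph EPI against Sph HYPO (0) gave 11 with DESeq2 and 2 in the first pools. Morula against EB ICM (1) gave 4 with DESeq2, 3 and 3 with limma, 2 with sums of at least 2 cells, 0 and 0 within pools and 2 with the morula cell of no known embryo added. EB ICM against LB EPI (3) gave 10 with DESeq2, 8 and 8 with limma and 0 and 0 within pools. LB EPI against Sph EPI (0) gave 3 with DESeq2, and the difference between LB and Sph (0) also 3. Morula and EB ICM against EPI (14) gave 28 and 31 with limma. Leaving out each sum gave 17 to 20 over 7 cell types, 0 to 1 for LB, 0 to 4 for Sph (4 without Sph HYPO F and 1 without E), 0 to 2 for Morula against EB ICM, 1 to 3 for EB ICM against LB EPI, 10 to 15 for Morula and EB ICM against EPI, 0 to 3 for the difference between LB and Sph (3 without Sph HYPO F) and 0 to 0 for the others. No direction of a named RAB gene turned. Among values of named genes, 114 fell short of the threshold, 20 newly passed it, 2 moved and 1235 kept direction and call. The replicate block changed no other call of a named RAB gene. In 17 cases a setting gave no usable value for a gene. Among them were RAB30 and RAB37 with DESeq2 across the 7 cell types, so DESeq2 neither repeated nor failed to repeat their edgeR calls there.

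Limits are the 1 to 19 cells behind a sum, 3 to 10 embryos a group and zeros in many sums. The embryo is read from cell identifiers. Library pools hold different mixes of cell types, and within them fewer sums were compared. Read sharing between close paralogs, such as those of RAB1A, RAB2A, RAB6A and RAB11B, was not tested, so their counts are uncertain to that extent.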

Other observations

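The morula cell of no known embryo, which entered no comparison, had RAB2A at 547.7 TPM, RAB3IL1 at 64.0 TPM (231 counts) and RAB11FIP4 at 120.6 TPM.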
